A study of Mus musculus with 8 samples.

Results

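Transforming growth factor beta (TGF-beta) is a cytokine that restrains T cell activation and helps to induce and maintain regulatory T cells. The ligand is made as a latent complex and is released by activating integrins. It binds TGFBR2, a kinase that recruits and phosphorylates TGFBR1, whereas TGFBR3 (betaglycan) presents ligand without being a kinase. TGFBR1 phosphorylates SMAD2 and SMAD3, which join SMAD4 and enter the nucleus. SMAD7 inhibits the receptor complex, and SKI and SKIL (SnoN) repress transcription by SMADs. The 10 genes described here are the ligand gene Tgfb1, the receptor genes Tgfbr1, Tgfbr2 and Tgfbr3, the SMAD genes Smad2, Smad3, Smad4 and Smad7, and the repressor genes Ski and Skil. They were taken by name from a deposited table of 52636 rows, and each name was found on 1 row, so that all 10 were measured, and all 10 passed the minimum value for testing.

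RNA was sequenced from sorted CD4+ Foxp3+ cells (Tregs) and CD4+ Foxp3- cells (conventional T cells, Tconvs) of mice carrying a Foxp3 reporter. All mice of the comparison had a single functional allele of CD27, a receptor of the TNF receptor family. CD70Tg mice (CD11c-Cd70tg;CD27+/-) carried in addition a transgene for CD70, the ligand of CD27, driven by the CD11c promoter and hence directed to dendritic cells, whereas control mice (CD27+/-) had no transgene. The labels give the control genotype as WT, and the ages and the number of mice behind a library are not stated in them. The paper took the sorted cells from spleen and states a general age range for its mice, though none for single libraries. Each of the 4 groups (Treg control, Treg CD70Tg, Tconv control, Tconv CD70Tg) had 2 libraries, here called library 1 and 2 in the order of the table. Nothing in the sources says whether the 2 libraries of a group came from separate mice, so that the p-values below speak for these libraries only. In the fit reported here they rest on 1 spread per gene, which is shared by all groups and moderated by that of other genes. A wider spread in Tregs alone would not show in them.

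Values are read counts that were scaled by the authors to 20000000 per library, in whole numbers. The spacing of the low values showed that 1920000 to 4560000 reads lay behind each Treg library and 6940000 to 33340000 behind each Tconv library, the lowest being Treg CD70Tg library 1. Tregs were thus measured with fewer reads, and the counting error of a given value was larger in them. Foxp3, on which the cells were sorted, read 19769 to 21367 in Tregs and 1039 to 1497 in Tconvs. Transcripts of Cd70, the gene of the transgene, were low in the sorted T cells and did not reach the minimum value for testing. They read 4 and 3 in control Tconvs, 15 and 28 in CD70Tg Tconvs, 0 and 9 in control Tregs and 11 and 44 in CD70Tg Tregs, so that both CD70Tg libraries lay above both controls in Tconvs. In Tregs all but the value of 44 lay under the floor of 3 reads of their libraries and could not be ordered. Cd27 read from 2980 to 6123. In these bulk populations, fewer cells of a type and less RNA per cell cannot be told apart.

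Markers of other cells and states moved with the transgene and their part in the results below was not tested. Among the proliferation genes, 4 of 4 rose in Tconvs, where their summed value went from 937 to 938 in controls to between 1610 and 3496, and 0 of 4 passed in Tregs with limma (2 at an unadjusted p under 0.05, and 0 with limma-voom), where the sums were 3020 to 3474 in controls and 4944 to 5341 in CD70Tg libraries. Cd8a rose in both subsets, from at most 71 in controls to between 223 and 608, and the CD8 list of 2 genes summed to at most 720 in controls and 1590 in CD70Tg libraries. Erythroid genes (4 in the list, 3 of which rose in Tregs) summed to 483 to 1346 in control Tregs, 2025 to 3251 in CD70Tg Tregs, 734 to 1321 in control Tconvs and 798 to 838 in CD70Tg Tconvs, and limma-voom called 0 of them in Tregs. The 5 dendritic cell markers summed to 104 to 156 and 350 to 378 in control and CD70Tg Tregs, and to 64 to 114 and 177 to 339 in Tconvs. Of these, Itgax rose in Tconvs and Zbtb46 in Tregs, from 25 and 27 to 209 and 191, and Cd209a was at 0 in both CD70Tg Treg libraries. Neutrophil genes summed to 5 in each control Treg library and to 170 to 180 in CD70Tg Tregs. This sum was carried by S100a8 (74 and 55) and S100a9 (95 and 104), whereas Ly6g and Retnlg read 0 or 11 there and 0 in the controls. S100a9 was the only one tested and was called higher in Tregs. Zbtb46 and S100a9 reached the minimum value only through the CD70Tg Treg libraries, where they were high. Cd8a and Itgax reached it in enough libraries only through the CD70Tg libraries of both subsets, where they were high too. The calls of all these genes were thus favoured by that filter. Genes of platelets, cells that are known for a high Tgfb1 content, summed to 41 at most in any group, with Pf4 and Gp9 at 0 in CD70Tg Tregs. Of 4 natural killer cell markers 1 was tested, Klrb1c, which fell in both subsets with limma, from 64 and 36 to 0 and 11 in Tregs, where limma-voom did not call it, and from 403 and 423 to 75 and 68 in Tconvs. The list summed to 411 to 434 in control Tconvs, 73 to 75 in CD70Tg Tconvs, 36 to 64 in control Tregs and 0 to 11 in CD70Tg Tregs. Ncr1, Klra8 and Klra4 were at 0 in all Treg libraries. The 5 monocyte and macrophage markers summed to 2560 to 2600 and 2444 to 2698 in control and CD70Tg Tregs and to 1464 to 1465 and 890 to 1150 in Tconvs. Of these, Csf1r fell in Tregs (-0.67), and Itgam rose in Tregs (1.13) and fell in Tconvs (-0.95), whereas limma-voom called 0 of the list in Tregs and 1 in Tconvs. Of 4 Treg markers none passed in Tregs, where Il2ra had the lower level in both CD70Tg libraries and 1 had an unadjusted p under 0.05 while limma-voom called 0, and Ctla4 rose 1.71-fold in Tconvs. In the contrast averaged over both subsets, which is used below, Ccr7, Lef1 and Tcf7, genes known for high levels in naive T cells, fell (log2 fold change -0.41, -0.41 and -0.39), and Klf2 did not pass (0.01). The Treg marker Il2ra also fell in it (-0.56, adjusted p = 0.00404). In the separate subsets Lef1 passed in Tconvs (adjusted p = 0.0498), and Ccr7 and Tcf7 passed in neither with limma, whereas limma-voom called all 3 lower in Tconvs. No marker of CD4 T cells (5 tested), B cells (2 of 5 tested) or stromal cells (3 of 4 tested) passed in either subset. At an unadjusted p under 0.05 there was 1 B cell gene in each subset, with limma-voom calling 0 in Tregs and 1 in Tconvs, and there was none in the other lists, where limma-voom called 0.

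The start regions of Tgfbr1 and Tgfbr2 are shown because Tregs had more of the one and less of the other receptor transcript than Tconvs. RefSeq start sites were matched for 5 of the 10 genes (Tgfb1, Tgfbr1, Tgfbr2, Smad3 and Ski), and Tgfbr3, Skil, Smad2, Smad4 and Smad7 had no entry that was used. The 250 bases before the start are given 5′ to 3′ on the gene's strand, with capitals marking the letters CAGAC, the core to which SMAD3 and SMAD4 bind, or GGGCGG, the GC box bound by Sp1 factors, each searched on both strands. Tgfbr1 is transcribed from the plus strand and the window is chr4:47352972-47353221 of GRCm38.p6. Tgfbr2 lies on the minus strand with the window chr9:116175364-116175613.
Tgfbr1: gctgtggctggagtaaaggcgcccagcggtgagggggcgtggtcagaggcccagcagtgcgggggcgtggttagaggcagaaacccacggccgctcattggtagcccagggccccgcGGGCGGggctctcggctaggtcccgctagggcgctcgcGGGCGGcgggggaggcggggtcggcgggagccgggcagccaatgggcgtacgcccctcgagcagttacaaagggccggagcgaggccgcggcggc
Tgfbr2: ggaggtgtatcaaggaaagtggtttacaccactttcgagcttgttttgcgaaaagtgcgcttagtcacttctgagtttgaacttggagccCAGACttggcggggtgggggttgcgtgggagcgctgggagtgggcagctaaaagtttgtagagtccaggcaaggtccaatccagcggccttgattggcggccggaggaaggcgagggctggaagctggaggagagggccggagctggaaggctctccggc
The Tgfbr1 window held 2 GC boxes and no CAGAC, and 74.8% of its bases were G or C. RefSeq has a second start of Tgfbr1 further downstream, whose window (chr4:47385966-47386215) is not printed and held 1 CAGAC and no GC box, with 52.8% G or C. Which of the starts these cells used was not measured. The Tgfbr2 window held 1 CAGAC and no GC box, with 58.4% G or C. Of the 32851 RefSeq windows of the same length, 42.2% held CAGAC on either strand and 32.7% held the GC box. Windows of Ski and Tgfb1 had 5 GC boxes each and that of Smad3 had 2, and none of these 3 held CAGAC. A match of letters is a description of the window and was not measured as binding here.

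The first question was how the pathway's transcripts were set in the 2 subsets without the transgene. Control Tregs had more Tgfbr1, Smad3 and Skil and less Tgfbr2, Tgfbr3 and Smad7 than control Tconvs. Of the 10 genes, 3 were higher, against 27.5% of all 12816 genes tested, and 3 were lower, against 18.4%, so that the shares were not far from those of the transcriptome at large. The order of sizes is shown by the plot of Treg over Tconv fold changes. This comparison and those of genotype draw on the same 8 libraries and are not independent. Markers of other cells and states also differed in it, and their part was not tested. Higher in control Tregs were 4 of 4 proliferation genes, 2 of 4 tested monocyte and macrophage markers, 2 of 3 tested stromal markers and 1 of 2 each for B and dendritic cells. Lower were 4 of 5 naive state genes and 5 of 5 markers of CD4 T cells, and 0 of 4 erythroid genes passed.

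**Figure D1:**
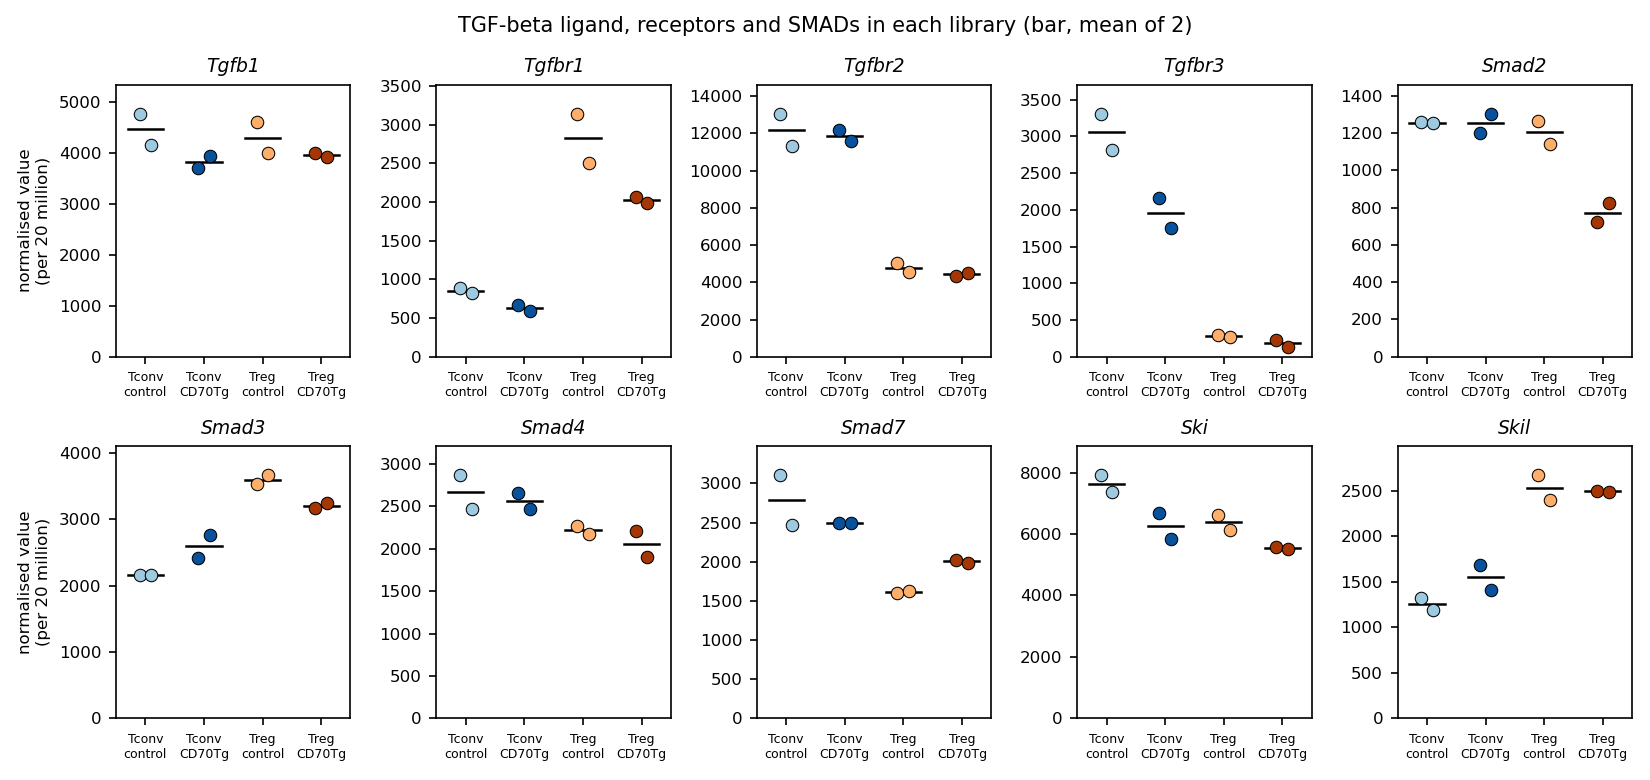
Normalised values (per 20000000, linear axis from 0) of the 10 genes in each of the 8 libraries, 1 point a library and a bar at the mean of 2, by subset and genotype. Tgfbr1 reads 823 to 889 in control Tconvs and 2509 to 3140 in control Tregs, and Tgfbr3 reads 2821 to 3309 in control Tconvs and 268 to 296 in control Tregs.

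Tgfbr1, the type I kinase receptor (chr4:47353222-47414931, plus strand, GRCm38), read 889 and 823 in control Tconvs and 3140 and 2509 in control Tregs. The 2 CD70Tg Tconv libraries read 666 and 586, and the CD70Tg Treg libraries 2059 and 1985. All 4 Treg libraries lay above all 4 Tconv libraries. The level in control Tregs was 3.27-fold that of control Tconvs (log2 fold change 1.71 ± 0.14 SE, adjusted p = 7.48e-08, limma with Benjamini-Hochberg adjustment over all genes tested).

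Tgfbr2, the type II receptor that binds the ligand (chr9:116084293-116175360, minus strand), showed the other direction. It read 13062 and 11300 in control Tconvs, 12194 and 11572 in CD70Tg Tconvs, 5023 and 4545 in control Tregs and 4368 and 4492 in CD70Tg Tregs. All 4 Treg libraries lay below all 4 Tconv libraries. In controls the level in Tregs was 2.54-fold lower (log2 fold change -1.35, 95% confidence interval -1.59 to -1.10, adjusted p = 1.30e-07). Within a library, the ratio of Tgfbr2 to Tgfbr1 values per kb of exon was 11.7 and 10.96 in control Tconvs and 1.28 and 1.45 in control Tregs. These ratios were 14.6 and 15.8 in CD70Tg Tconvs and 1.69 and 1.81 in CD70Tg Tregs, so that in each subset both CD70Tg libraries had the higher ratio. Tgfbr2 was thus above Tgfbr1 in every library, and no test was made on the ratios.

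Tgfbr3, the co-receptor betaglycan (chr5:107106570-107289629, minus strand), had the largest difference of the 10 genes. Control Tconvs read 3309 and 2821, and control Tregs read 296 and 268. The CD70Tg libraries read 2164 and 1749 in Tconvs and 230 and 136 in Tregs. Tregs had 10.7-fold less in controls (log2 fold change -3.42 ± 0.21 SE, adjusted p = 2.20e-09) and also 10.7-fold less in CD70Tg mice (adjusted p = 3.37e-09). The low Treg values rested on 61, 61, 22 and 25 reads, and the exact Poisson interval of the lowest, 136, was 87.9 to 200.5, which covers counting error only. Exons of a second gene model on the same strand, Gm43422, overlapped 4.5% of the exon bases of Tgfbr3, and reads there could not be assigned with certainty. No such overlap was found for the other 9 genes.

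The SMADs that carry the signal were not set alike. Smad3 (chr9:63646767-63757994, minus strand) read 2166 and 2160 in control Tconvs and 3533 and 3665 in control Tregs, a 1.66-fold higher level (adjusted p = 7.07e-05). Smad2, its partner substrate on chromosome 18, read 1256 and 1252 against 1262 and 1143 and did not pass (log2 fold change -0.06, interval -0.35 to 0.22). Smad4, the common partner, also on chromosome 18, read 2868 and 2472 in control Tconvs and 2271 and 2172 in control Tregs (log2 fold change -0.26, interval -0.52 to 0.00015, adjusted p = 0.0946). All 4 Treg libraries lay below all 4 Tconv libraries for Smad4, although the test in controls did not pass. Within control libraries the ratio of Smad3 to Smad2 values per kb was 2.73 in each Tconv library and 4.44 and 5.08 in the Treg libraries, and with the transgene it was 3.19 and 3.36 in Tconvs and 6.96 and 6.25 in Tregs, so that both CD70Tg libraries had the higher ratio in each subset. No test was made on these ratios.

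Among the inhibitors, Smad7, which blocks the activated receptor and is itself a target of TGF-beta signalling, read 3106 and 2470 in control Tconvs and 1597 and 1629 in control Tregs, a 1.72-fold lower level (log2 fold change -0.78, adjusted p = 1.04e-04). Skil (chr3:31095058-31122577, plus strand) read 1326 and 1191 against 2674 and 2400, a 2.01-fold higher level in Tregs (adjusted p = 1.00e-05). Its relative Ski (chr4:155154075-155222592, minus strand) read 7913 and 7360 against 6614 and 6135 and did not pass (log2 fold change -0.26, interval -0.50 to -0.02, adjusted p = 0.0704). Ski passed when either 1 of the CD70Tg Tconv libraries was left out (adjusted p down to 0.0349), and both Ski and Smad4 passed with TMM or median-of-ratios factors. The 2 repressors of the SMADs thus had fitted differences of opposite sign, and in the fit reported here only that of Skil passed. The ligand gene Tgfb1 (chr7:25687002-25705077, plus strand) read 4768 and 4150 in control Tconvs and 4600 and 3994 in control Tregs, with overlapping libraries and a log2 fold change of -0.05 (interval -0.30 to 0.19).

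**Figure D2:**
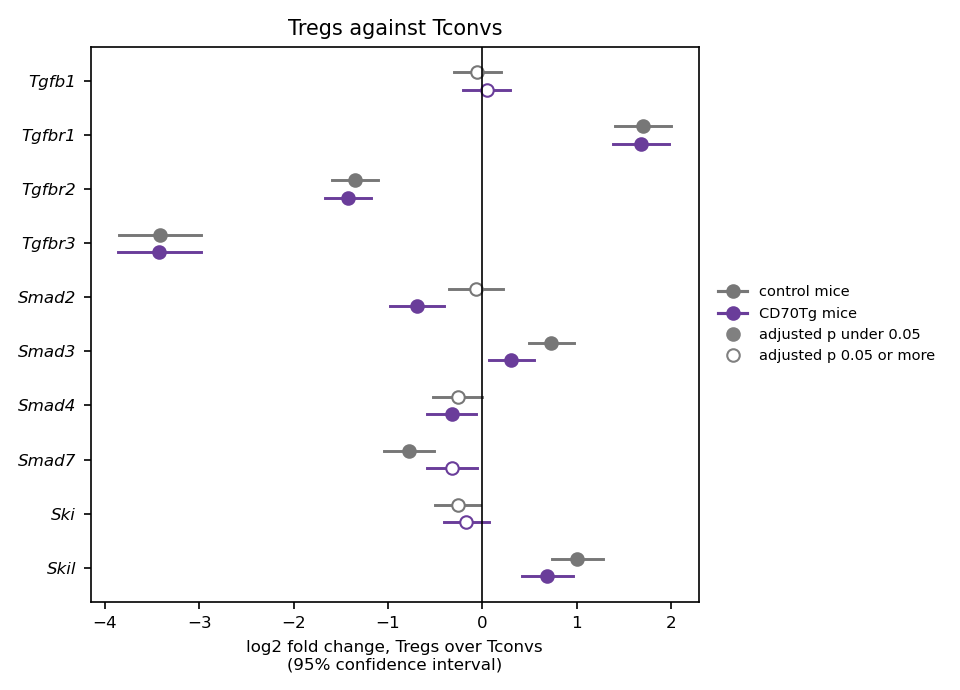
Log2 fold change of Tregs over Tconvs for each gene with its 95% confidence interval, in control mice and in CD70Tg mice, filled where the adjusted p was under 0.05. Tgfbr3 and Tgfbr2 lie to the left and Tgfbr1 to the right of 0 in both genotypes, and the points of Smad2 differ between them (-0.06 in controls and -0.70 in CD70Tg mice).

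In CD70Tg mice the differences in the receptors had the same directions. CD70Tg Tregs had more Tgfbr1 (3.22-fold), Skil (1.61-fold) and Smad3 (1.24-fold, adjusted p = 0.0373) than CD70Tg Tconvs, and less Tgfbr3, Tgfbr2 (2.68-fold lower), Smad2 (1.62-fold lower, adjusted p = 7.06e-04) and Smad4 (1.25-fold lower, adjusted p = 0.0445). These were 3 genes higher, against 22.6% of all genes tested, and 4 lower, against 20.1%. Markers of other cells and states differed here too, and their part was not tested. Higher in CD70Tg Tregs were 4 of 4 erythroid genes, 4 of 4 tested monocyte and macrophage markers, 2 of 2 tested B cell and 2 of 3 tested stromal markers and 1 of 4 proliferation genes. Lower were 4 of 5 naive state genes, 2 of 5 markers of CD4 T cells and 2 of 2 CD8 genes. Smad7 missed the threshold in this comparison (log2 fold change -0.32, interval -0.58 to -0.05, adjusted p = 0.0503). The calls of Smad3 and Smad4 each held in 9 of 17 alternative settings, whereas those of Tgfbr1, Tgfbr2, Tgfbr3, Smad2 and Skil held in all 17. Leaving out CD70Tg Tconv library 1 or any 1 of the 4 Treg libraries ended both calls (adjusted p up to 0.174 for Smad3 and 0.297 for Smad4), and Smad7 passed without either 1 of the control Tconv libraries (adjusted p down to 0.0342).

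Levels of different genes were compared only after division by exon length (kb of non-overlapping exon bases of GENCODE). In control Tconvs the order per kb was led by Tgfbr2 (1488 ± 152, SD, n = 2), Ski (1373 ± 70.3) and Tgfb1 (884 ± 86.7). Tgfbr2 came before Ski in each of these libraries, although the ranges of the 2 genes over libraries overlapped. At the low end Tgfbr1 (131) and Skil (130) changed places between the libraries. In control Tregs the order was led by Ski (1146 ± 60.9), Tgfb1 (852 ± 85.0) and Smad3 (649 ± 16.8), and Tgfbr3 was last (43.1 ± 3.03). Smad4 (599) and Tgfbr2 (584) were not separated in control Tregs.

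A few places in this order moved with subset or genotype in the libraries at hand. Tgfbr1 was in the last 2 places in every Tconv library, and it was sixth or seventh of 10 in every Treg library. Smad7 came after Tgfbr1 in both control Treg libraries (357 against 432 per kb in the mean) and before it in both CD70Tg Treg libraries (443 against 309). Likewise Smad3 came after Tgfbr3 in both control Tconv libraries (390 against 468) and before it in both CD70Tg Tconv libraries (468 against 299). These orders are descriptions, and no test was made on them.

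**Figure D3:**
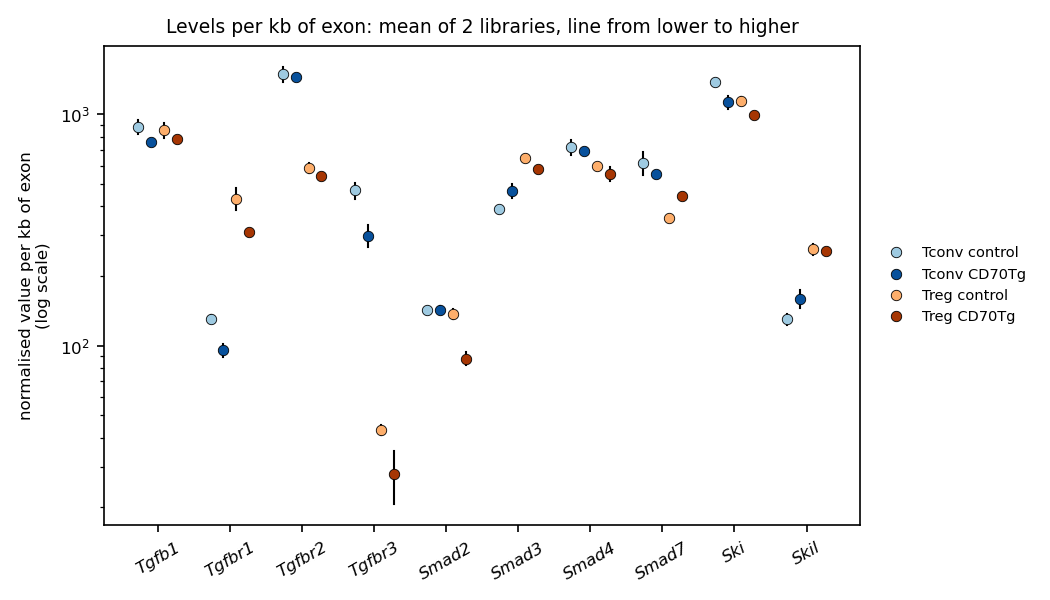
Level of each gene per kb of exon (log axis) in the 4 groups, as the mean of 2 libraries with a line from the lower to the higher library. Tgfbr3 spans the widest range, from 468 per kb in control Tconvs to 28.0 in CD70Tg Tregs.

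The second question was what the CD70 transgene changed within each subset. In Tregs, Smad2 and Tgfbr1 fell and no gene of the 10 rose. The call of Tgfbr1 depended on leaving out rows named after genomic clones, which was decided after the values were seen. With those rows kept, only Smad2 passed. Of the 10 genes, 2 were lower, against 3.46% of all genes tested, and 0 were higher, against 3.94%. At an unadjusted p under 0.05 there were 4, against 21.6% of all genes. Smad7 had a higher fitted level with an unadjusted p = 0.0237 in limma and passed when the 4 Treg libraries were fitted alone (adjusted p = 0.047), and limma-voom called 0 of the 10 genes in either direction. Both CD70Tg libraries lay below both controls for 7 of the 10 genes in Tregs, a pattern that 31.2% of all genes tested showed, and above them for 1 gene, Smad7, against 22.5%. The median log2 fold change was -0.14 over the 10 genes and -0.05 over all genes tested.

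Smad2, one of the substrates of TGFBR1, read 1262 and 1143 in control Tregs and 721 and 822 in CD70Tg Tregs. The groups did not overlap, and the level was 1.56-fold lower (log2 fold change -0.64 ± 0.14 SE, adjusted p = 0.00841). In Tconvs it read 1256 and 1252 in controls and 1199 and 1303 in CD70Tg libraries, with a log2 fold change of -0.0047 (interval -0.29 to 0.28). The difference between the responses of Tregs and Tconvs was -0.63 on the log2 scale (interval -1.04 to -0.23) and did not pass (adjusted p = 0.161), so that Smad2 was not shown to respond differently. The fall in Tregs passed in 13 of 17 alternative settings. It did not pass without Treg control library 1 (adjusted p = 0.144), without Treg CD70Tg library 1 (0.101), with no minimum value (0.0527) or with limma-voom on recovered reads (0.102). The 2 CD70Tg values rested on 69 and 151 reads.

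Tgfbr1 read 3140 and 2509 in control Tregs and 2059 and 1985 in CD70Tg Tregs, and 889 and 823 against 666 and 586 in Tconvs. The CD70Tg libraries were below the controls in each subset. In Tregs the level was 1.39-fold lower (log2 fold change -0.47, interval -0.77 to -0.18, adjusted p = 0.0497), which is just inside the threshold and passed in 6 of 17 alternatives. With the clone-named rows kept it did not pass (adjusted p = 0.0528, limma). Leaving out Treg control library 1 took the log2 fold change to -0.31 (adjusted p = 0.499), and leaving out any other Treg library also ended the call (adjusted p from 0.0585 to 0.205). In Tconvs the fitted size was close to that in Tregs (log2 fold change -0.45, interval -0.75 to -0.16, adjusted p = 0.0558) but did not pass. The difference between subsets was -0.02 (interval -0.44 to 0.40).

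No gene of the 10 passed in Tconvs with limma, neither higher (6.82% of all genes tested) nor lower (1.99%). At an unadjusted p under 0.05 there were 5, against 19.1% of all genes, and limma-voom on recovered reads called 3 as lower, Tgfbr1, Tgfbr3 and Ski, in a fit that called 5.06% of all genes tested lower and 15.4% in either direction. Both CD70Tg Tconv libraries lay below both controls for 4 genes, against 21.4% of all genes tested, and above them for 2, Smad3 and Skil, against 23.7%. Leaving out Tconv CD70Tg library 1 gave 2 calls, Tgfbr1 (adjusted p = 0.0334) and Ski (0.0442). The median log2 fold change of the 10 genes was -0.10 in Tconvs, beside 0.0069 over all genes.

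Tgfbr3 had the largest fitted difference in each subset. It read 296 and 268 in control Tregs against 230 and 136 in CD70Tg Tregs (log2 fold change -0.66, interval -1.09 to -0.22, adjusted p = 0.0657) and 3309 and 2821 against 2164 and 1749 in Tconvs (log2 fold change -0.65, interval -1.09 to -0.21, adjusted p = 0.0615). The CD70Tg libraries lay below the controls in both subsets, at levels that differed by an order of magnitude between them. The fit gave the same SE (0.21) to both subsets, although the Treg values rested on 61, 61, 22 and 25 reads. The Treg interval may therefore be too narrow. With limma-voom the adjusted p was 0.458 in Tregs and 0.00197 in Tconvs. In Tregs the size depended on 1 library. Without CD70Tg library 2 the log2 fold change was -0.29 and without CD70Tg library 1 it was -1.02, and only the latter passed (adjusted p = 0.00947). In Tconvs Tgfbr3 passed without Treg CD70Tg library 1 (adjusted p = 0.0177) or 2 (0.0159), which leaves the fold change itself as it was.

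Smad3 and Smad7 had fitted responses of opposite sign in the subsets. Smad3 read 3533 and 3665 in control Tregs against 3166 and 3241 in CD70Tg Tregs (log2 fold change -0.17, interval -0.41 to 0.07) and 2166 and 2160 against 2418 and 2766 in Tconvs (0.26, interval 0.02 to 0.50, adjusted p = 0.215). Smad7 read 1597 and 1629 against 2017 and 1990 in Tregs (log2 fold change 0.31, interval 0.05 to 0.58, adjusted p = 0.153) and 3106 and 2470 against 2496 and 2501 in Tconvs (-0.15, interval -0.41 to 0.12). Neither gene passed in either subset. The differences between the responses were -0.42 for Smad3 (interval -0.76 to -0.09, adjusted p = 0.316) and 0.46 for Smad7 (interval 0.09 to 0.83, adjusted p = 0.330). None of the 10 genes passed this test of the difference with limma, which called 1.02% of all genes tested. At an unadjusted p under 0.05 there were 3, Smad2, Smad3 and Smad7, against 10.7% of all genes, and limma-voom called 0.

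The repressors and the ligand did not pass in either subset. Ski read 6614 and 6135 against 5590 and 5497 in Tregs and 7913 and 7360 against 6670 and 5838 in Tconvs, with fold changes of 1.15-fold and 1.22-fold lower that did not pass. Skil read 2674 and 2400 against 2498 and 2491 in Tregs (log2 fold change -0.02, interval -0.29 to 0.25) and 1326 and 1191 against 1686 and 1413 in Tconvs (0.30, interval 0.03 to 0.57, adjusted p = 0.204). Tgfb1 read 4600 and 3994 against 3992 and 3921 in Tregs (interval -0.36 to 0.13) and 4768 and 4150 against 3711 and 3942 in Tconvs (interval -0.47 to 0.03). The intervals of Tgfbr2 (-0.35 to 0.13 in Tregs and -0.28 to 0.21 in Tconvs) and Smad4 (-0.38 to 0.14 and -0.32 to 0.21) included 0 in both subsets, and a change of up to those bounds is within the error.

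**Figure D4:**
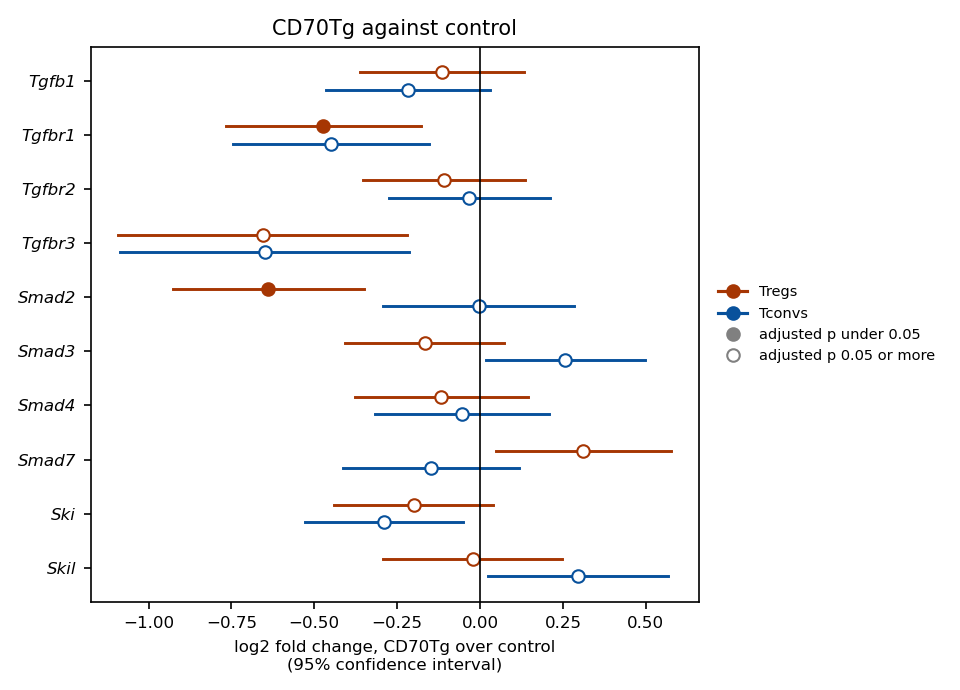
Log2 fold change of CD70Tg over control for each gene with its 95% confidence interval, unadjusted, in Tregs and Tconvs, filled where the adjusted p was under 0.05. Smad2 (-0.64) and Tgfbr1 (-0.47) in Tregs are the 2 filled points, and the points of Tgfbr1 and Tgfbr3 lie close together in the 2 subsets.

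Both CD70Tg libraries lay below both controls in each of the subsets for 4 genes, Tgfb1, Tgfbr1, Tgfbr3 and Ski, against 11.2% of all genes tested. A contrast that averaged the 2 subsets was therefore added after the values were seen, and since it was chosen for this pattern its calls are no independent support for it. In it 4 genes were lower, against 6.00% of all genes tested, and 0 higher, against 9.18%, where the smallest unadjusted p of a gene with a higher fitted level was 0.149 (Skil). With limma-voom 3 of the 10 genes passed in this contrast, against 12.9% of all genes tested. Tgfbr1 fell 1.38-fold (log2 fold change -0.46, adjusted p = 0.00383), Tgfbr3 1.57-fold (-0.65, adjusted p = 0.00515), Smad2 1.25-fold (-0.32, adjusted p = 0.0307) and Ski 1.19-fold (-0.25, adjusted p = 0.0482). Tgfbr1 passed in 16 of 16 alternatives, Tgfbr3 in 15, Smad2 in 8 and Ski in 4. The fitted values of Smad2 were -0.64 and -0.0047 in the subsets, and its average is a value of neither.

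The gene whose pattern was followed for likeness was Tgfbr3, the member with the largest difference in each of 3 comparisons. The genes most like it over the 8 libraries, by Pearson's r of log2 values, were Hs3st3b1 (r = 0.998), which modifies heparan sulphate, Rflnb (0.997) and Dph5 (0.997), an enzyme of diphthamide synthesis. Hs3st3b1 read 1678 and 1237 in control Tconvs, 957 and 803 in CD70Tg Tconvs, 98 and 110 in control Tregs and 95 and 44 in CD70Tg Tregs. The libraries fall into 2 subsets with most of the spread between them, and 465 genes had r over 0.95, so that the correlation is a description of that separation.

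The rest of the pathway was read from lists of other genes, whose counts stand against the shares over all genes tested. These were 27.5% higher and 18.4% lower in control Tregs against control Tconvs, 3.94% and 3.46% with the transgene in Tregs, and 6.82% and 1.99% in Tconvs. With limma-voom 2.01% of all genes were called in Tregs and 15.4% in Tconvs. Among ligand, latency and activation genes, 10 of 16 passed the minimum value. Lrrc32 (GARP), which holds latent TGF-beta on the surface of Tregs, read 11665 and 10684 in control Tregs and 200 and 277 in control Tconvs, a 46.5-fold difference. Itgb8, a subunit of an integrin that activates the latent form, was 21.5-fold higher in control Tregs. Tgfb3, another ligand of the family, was called lower there. It read 25 and 22 in control Tregs, near the floors of 3 reads (14.6 and 13.1), against 221 and 134 in control Tconvs, and no fold is given for it. In this comparison 4 genes of the list were higher and 2 lower. In CD70Tg mice these were 4 and 3, against 22.6% and 20.1% of all genes tested.

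With the transgene, 3 of these 10 genes rose in Tconvs and none in Tregs, where no gene of the list had an unadjusted p under 0.05 and limma-voom called 0. Furin, the protease that cleaves the TGF-beta precursor, read 1899 and 1806 in control Tconvs and 3026 and 6756 in CD70Tg Tconvs (2.44-fold, adjusted p = 0.00160). Itgav, the partner chain of Itgb8, rose 1.43-fold and the ligand gene Bmp7 1.89-fold in Tconvs. In the test of the difference between the responses 0 of the 10 passed with limma, and 3 had an unadjusted p under 0.05. The adjusted p was 0.133 for Furin, 0.295 for Bmp7 and 0.599 for Itgav, so that the subsets were not shown to respond differently. The 2 CD70Tg libraries of Furin were unlike each other, and the second was the deepest library of the table. Lrrc32 read 9237 and 8423 in CD70Tg Tregs (log2 fold change -0.34, adjusted p = 0.328).

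Of 12 other receptors of the superfamily, 6 passed the minimum value. Acvr1b, a type I receptor that signals through SMAD2 and SMAD3 for activins, fell in both subsets. It read 811 and 802 in control Tregs against 408 and 463 (1.85-fold lower, adjusted p = 0.00116) and 1556 and 1430 in control Tconvs against 951 and 889 (1.62-fold lower, adjusted p = 0.00448). Acvrl1 (ALK1), a type I receptor that signals through the SMADs of the BMP branch, fell 2.29-fold in Tconvs (adjusted p = 5.50e-04) from 2033 and 1729 to 871 and 763. No other gene of the 6 passed in either subset. Limma-voom called 0 of the 6 in Tregs, where the fall of Acvr1b was thus lost, and 2 in Tconvs. In control Tregs Acvrl1 was 10.7-fold lower than in control Tconvs, and Bmpr2 and Bmpr1a, receptors for bone morphogenetic proteins, were 4.31-fold and 2.06-fold higher.

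Of the SMADs of the BMP branch and Smad6, 2 of 4 passed the minimum value, Smad1 and Smad5, and neither passed in either subset with the transgene, while 1 had an unadjusted p under 0.05 in each and limma-voom called 0 in Tregs and 1 in Tconvs. Smad1 was 1.56-fold lower in control Tregs than in control Tconvs. Among 18 tested modifiers of receptors and SMADs, 8 were higher and 4 lower in control Tregs (against 27.5% and 18.4% of all genes, so that the lower share was near that at large), led by Hipk2 (3.81-fold), Ldlrad4, an inhibitor of SMAD phosphorylation (2.84-fold), and Usp11, a deubiquitinase (1.96-fold). With the transgene Smurf2, a ubiquitin ligase that acts with SMAD7 on the receptor, fell 1.49-fold in Tregs (adjusted p = 0.0246), and Pmepa1, an inhibitor that TGF-beta induces, rose 1.68-fold in Tconvs (adjusted p = 0.00572). These were 1 of 18 in each subset, near the shares over all genes. With limma-voom 0 of the 18 passed in Tregs and 3 in Tconvs.

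Among 11 tested nuclear partners of the SMADs, 3 rose in each subset, against 3.94% of all genes in Tregs and 6.82% in Tconvs, and limma-voom called 1 in Tregs and 3 in Tconvs. Runx3 rose 1.46-fold in Tregs and 1.63-fold in Tconvs. Runx2 read 423 and 548 in control Tregs against 1338 and 1430, and 87 and 57 in control Tconvs against 715 and 1214. Its rise was 2.85-fold in Tregs and 12.4-fold in Tconvs. Fosl2, an AP-1 factor, rose 2.43-fold in Tregs and Tgif1, a corepressor, rose 1.63-fold in Tconvs. In control Tregs 6 of the 11 were higher than in control Tconvs and 1 was lower.

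**Figure D5:**
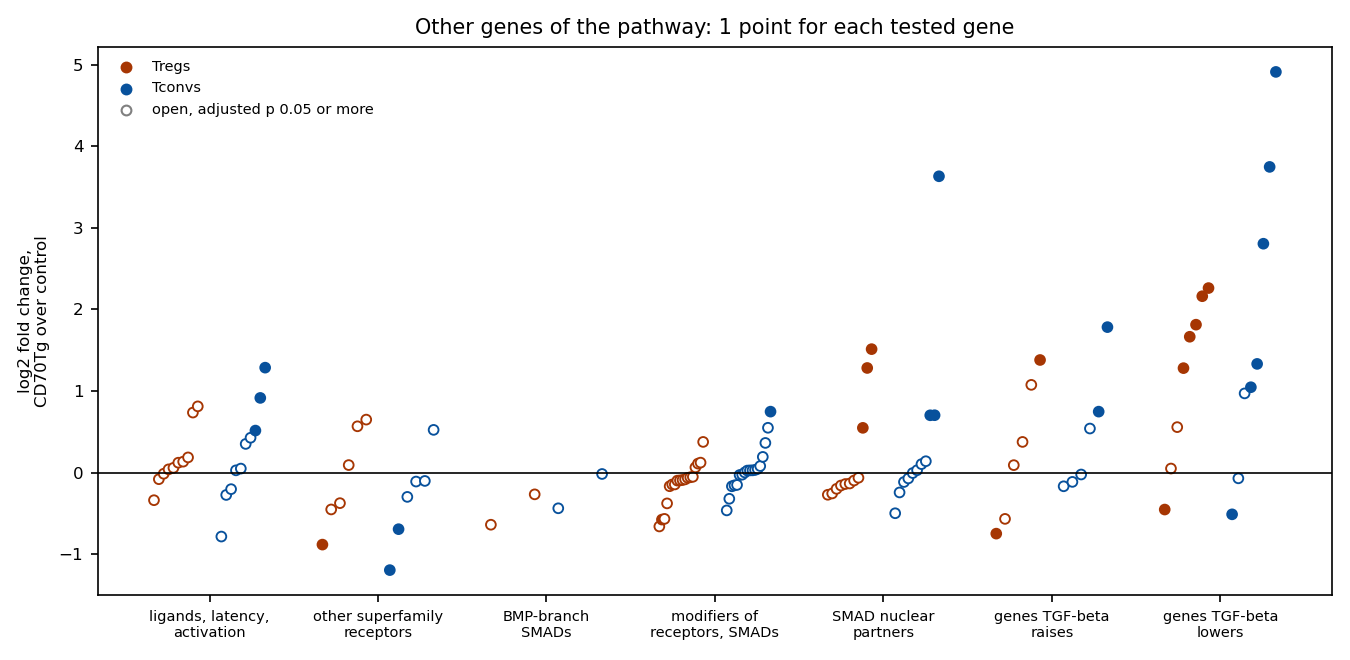
Log2 fold change of CD70Tg over control for each tested gene of 7 pathway lists, in Tregs and Tconvs, filled where the adjusted p was under 0.05. Most points of the first 4 lists lie near 0, and the filled points of the last list are mostly above 0 in both subsets.

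Genes that TGF-beta is known to raise in T cells did not move one way. Of 6 tested, Itgae, the integrin alpha chain of CD103, rose 2.60-fold in Tregs and 3.44-fold in Tconvs, while Nt5e (CD73) fell 1.68-fold in Tregs (adjusted p = 0.00793), from 6765 and 6918 to 4044 and 4089. Pmepa1, which also stands in the list of modifiers, was the other gene that rose in Tconvs. In control mice 5 of the 6 were higher in Tregs, among them Foxp3, on which the cells were sorted and which is therefore no finding.

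Genes that TGF-beta is known to lower in T cells mostly rose with the transgene. Of 8 tested, 5 rose and 1 fell in each subset, where 3.94% of all genes rose in Tregs and 6.82% in Tconvs. With limma-voom 2 of the 8 passed in Tregs and 7 in Tconvs. The median log2 fold change was 1.47 in Tregs and 1.19 in Tconvs, beside -0.05 and 0.0069 over all genes. In Tregs Prf1 (4.47-fold) and Gzmb (3.51-fold), which encode perforin and a granule enzyme, rose. Gzma, another granule enzyme, also passed there, but it read 10 and 27 in control Tregs, a few reads each and in library 1 under the floor of 3 reads (14.6), against 115 and 87 in CD70Tg Tregs, and no fold is given for it. In Tconvs the largest rises were those of Gzmb (30.1-fold), Ifng, the gene of interferon gamma (13.4-fold), and Gzma (6.99-fold). Gzma reached the minimum value in enough libraries only through the CD70Tg libraries, where it was high. Its calls in both subsets, which are counted above, were thus favoured by that filter. Ifng read 105 and 72 in control Tconvs and 718 and 2111 in CD70Tg Tconvs, and Gzma 46 and 65 against 257 and 661. The 2 CD70Tg libraries were unlike each other, and without library 1 or 2 of them the fold was 22.99 or 7.86 for Ifng and 11.1 or 4.38 for Gzma. The gene that fell in each subset was Myc, a driver of growth, which read 3247 and 3008 against 2383 and 2181 in Tregs and 2181 and 2030 against 1473 in each CD70Tg Tconv library. Cd8a and the proliferation genes moved in the same direction as this list, as given above, and their part in it was not tested. The list was chosen with results of these libraries known, so that its direction is no independent evidence.

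The calls of the named list genes with the transgene were not equally firm when 1 of the 4 libraries of the subset was left out. In Tregs the calls of Acvr1b, Runx2, Itgae, Prf1 and Gzmb passed in all 4 cases, those of Fosl2 and Gzma in 2 and those of Smurf2, Runx3, Nt5e and Myc in none. Fosl2 was lost without control or CD70Tg library 2 (adjusted p up to 0.138) and Gzma without control or CD70Tg library 1. In Tconvs the calls of Furin, Acvrl1, Runx2, Runx3, Itgae, Gzmb, Ifng and Gzma passed in all 4. Bmp7 was lost without control or CD70Tg library 2, Itgav and Tgif1 without control library 2 or CD70Tg library 1, Pmepa1 without control library 2, and Acvr1b (adjusted p = 0.0523) and Myc without control library 1.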

How the data were processed

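RNA from sorted Tregs and Tconvs was sequenced as paired ends after library preparation for low input. Per the labels, Trimmomatic 0.36 trimmed adapters, STAR 2.5.3 aligned to the mouse build mm10 and HTSeq 0.9.1 counted. The deposited table holds, as a score, read counts scaled by the authors to 20000000 per library and given as whole numbers, and the scaling method is not given in the sources used here. Its control columns carry KO in their names and were taken as the CD27+/- controls, which the labels call WT. The sample titles number the samples 1 and 2 in each group, but the column names carry no such number, so that columns were assigned to groups only.

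Values were analysed as log2(value + 5) with limma 3.58.1 in R 4.3.3, with 1 fit over all 8 libraries and a mean for each of 4 groups. The variance of a gene was shared by all groups and moderated toward a trend over genes (median prior degrees of freedom 12.3). The same SE thus served Tregs and Tconvs. Genes with 60 or more in at least 2 libraries entered (12816), and p-values were adjusted over all of them by Benjamini-Hochberg with a threshold of 0.05. The study's threshold of a fold change over 2 was tried as an alternative. Fold changes are on the log2(value + 5) scale and slightly understate those of low genes. The fit was tested on simulated data. After the values were seen, 4131 rows named after genomic clones were left out, and a name on several rows was given to the row with the largest total. The value of 1 read was estimated from the spacing of low values in each library (100.0% of values up to 60 lay on that spacing, which by chance covers 8.3 to 100.0% of whole numbers and so says little in the 2 deepest libraries), and limma-voom was run on the reads so recovered.

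The 10 genes and all lists were chosen with earlier results of these data known. Beyond the 10 genes, up to 3 genes with the largest change among those that passed were named for each list and comparison, with the 3 genes most like the member that changed most, and a few others named were chosen after their values were seen. Positions and exon lengths were taken from GENCODE M21 (GRCm38.p6), promoters from RefSeq of the same build. The Poisson interval and the read floors cover counting error only. The intervals of log2 fold changes rest instead on the moderated spread between libraries. Alternatives were another pseudocount, minimum, scaling or model, subsets of libraries, and leaving out each library, in which case the lone library of a group is assumed to vary like the other groups. One gene of the marker lists is not reported here.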

Additional observations from a re-analysis of the deposited data

Results flagged for a closer look

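In 3 genes of the pathway lists the response to the transgene differed between Tregs and Tconvs by the test of the difference itself. Runx2 rose less in Tregs than in Tconvs (difference -2.12 on the log2 scale, adjusted p = 0.00507), as did Gzmb (difference -3.1, adjusted p = 8.67e-04), and Fosl2, which rose in Tregs and was not called in Tconvs (log2 fold change -0.50), had a difference of 1.78 (adjusted p = 0.0482). In both genes with the smaller Treg rise the control level was higher in Tregs than in Tconvs. The differences of Runx2 and Gzmb passed in 14 of 16 alternatives, and that of Fosl2 in 5. With limma-voom on recovered reads none of the 3 passed (adjusted p = 0.0573 for Runx2, 0.0713 for Gzmb and 0.0969 for Fosl2).

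Smad3 was flagged because both CD70Tg libraries lay below both controls in Tregs and above both in Tconvs. The difference of the responses was -0.42 on the log2 scale and did not pass when tested (adjusted p = 0.316), nor in any of 16 alternatives (adjusted p from 0.104 to 0.669).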

How the results depend on the processing

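Of 860 tests of the 10 genes under 21 alternatives, 799 kept their side of the threshold, 31 lost a call, 30 gained one and 0 turned a called direction, while 37 changed sign without being called in either fit. Calls in Tregs (2) became 0 with a fold over 2 also required, with no minimum value and with limma-voom, 1 with a pseudocount of 1, a mean of at least 60, TMM or median-of-ratios factors or clone-named rows kept, 3 in the 4 Treg libraries alone (Smad7 added, as higher) and 4 averaged over both subsets. Calls in Tconvs (0) became 1 with a pseudocount of 20, TMM or median-of-ratios factors or the 4 Tconv libraries alone, 3 with limma-voom and 4 averaged. Between CD70Tg subsets 7 calls became 3 with a fold over 2 required. Leaving out 1 library gave 0 to 2 calls in Tregs and in Tconvs, 6 to 7 between control subsets, 5 to 8 between CD70Tg subsets and 0 for the difference of responses. The cause was not tested. Over all genes, the 948 calls in Tregs became 261 with no minimum value, 257 with limma-voom and 1690 in the 4 Treg libraries alone, and the 1129 in Tconvs became 365 with no minimum value and 1974 with limma-voom. The 131 calls for the difference became 0 with no minimum value and 63 with limma-voom. Without 1 Treg library the Treg calls were 294 (control 1), 472 (control 2), 373 (CD70Tg 1) and 511 (CD70Tg 2), and the genes called lower went from 443 to 75 without control 1, so that the share of 3.46% depends on that library. Calls in Tconvs became 730 without Tconv control 2 and 513 without Tconv CD70Tg 2, and those for the difference ranged from 59 (without Treg CD70Tg 1) to 271 (without Tconv CD70Tg 1). The 5875 calls between control subsets became 3670 without Treg control 2, and the 5467 between CD70Tg subsets 3639 without Treg CD70Tg 1. In the averaged contrast 1945 calls became 1225 without Treg control 1 and 984 with no minimum value. Counts of the other lists moved by over 1.5 times in 66 of 602 cases. No paired analysis was possible because the columns carry no replicate numbers: the sample titles number the samples 1 and 2 in each group, but the column names hold other running numbers, so that a pairing, if there was one, could not be carried over. With 1920000 reads in the shallowest Treg library, values near the floor of 3 reads (31.3 there) could not be compared.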
